A study of Mus musculus with 9 samples.

Results

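Fibrillar collagen is hydroxylated, folded and crosslinked by a small set of enzymes and chaperones, and 10 of their genes are described here: the lysyl oxidases Lox, Loxl1 and Loxl3, the lysyl hydroxylases Plod1, Plod2 and Plod3, the prolyl hydroxylase subunits P4ha1 and P4ha2, and the collagen chaperones Fkbp10 and Serpinh1. Members were all probes that carry 1 of these 10 symbols in the array table. This gave 10 of 17914 genes on the array, each with 1 probe, or 10 probes of 25697. Of these, 9 were above background on 9 of 9 arrays, and the Loxl3 probe was above background on 0 of 9.

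The cells were primary osteoblasts of the newborn mouse skull vault, and every group carried a lentivirus that expresses RUNX2, a master transcription factor of bone formation, when doxycycline (dox) is present. They were grown in phenol red free medium with charcoal-stripped serum, which is poor in steroid hormones, and total RNA was measured on 9 Illumina mouse bead arrays after 48 h of treatment. Vehicle was given to 2 samples, 500 ng/ml dox to 2, 10 nM of the oestrogen oestradiol (E2) to 3, and 500 ng/ml dox together with 10 nM E2 to 2. Slide 1 held the vehicle and dox arrays and slide 2 held every array given E2, so dox was compared within a slide while E2 and slide cannot be told apart. On both slides the arrays without dox lay at positions A to C and the dox arrays at positions E to G. Dox and position on the slide therefore cannot be told apart either, and the slide block does not remove this. Every group holds transduced cells and no group lacks the virus, so an effect of dox apart from RUNX2 was not separated. Whether replicates were separate cultures or animals is not given in the labels, so the p-values cover only the spread among these arrays, possibly a technical one. Their small number limits the precision of each value.

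As background, collagen chains are modified in the endoplasmic reticulum before they leave the cell. Prolyl hydroxylation by the P4ha enzymes stabilises the triple helix, lysyl hydroxylation by the Plod enzymes prepares crosslinking sites, and Serpinh1 and Fkbp10 hold and fold the procollagen chains. Outside the cell, lysyl oxidases turn lysine and hydroxylysine side chains into aldehydes, which then join neighbouring molecules and stiffen the fibril. In bone this chemistry sets matrix strength, and human mutations in PLOD2, FKBP10, SERPINH1 and other genes of this route cause brittle bones.

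The 2 Runx2 probes of the array were each detected on 0 of 9 arrays, dox arrays included (detection p from 0.294 to 0.887), so the induction of RUNX2 is not seen in these values. The labels do not say whether these probes match the viral transcript. Since the study's design is built on RUNX2, the promoters were read for the RUNX core TGTGGT, and for the hypoxia response core ACGTG, since P4ha1, Plod2 and Lox are known targets of hypoxia-inducible factors. RefSeq promoters (mouse GRCm38.p6, 250 bases before the start) were used for 5 of the 10 genes: Plod1, Plod3, P4ha1, P4ha2 and Serpinh1. Both strands were searched, and the letters do not overlap in these windows. The 4 promoters that held a match are shown 5′ to 3′ in the gene's orientation, with both cores in capitals (TGTGGT or ACCACA for RUNX, ACGTG or CACGT for hypoxia). Their positions are chr11:54100674-54100923 (+ strand) for P4ha2, chr10:59323046-59323295 (+ strand) for P4ha1, chr5:136986769-136987018 (+ strand) for Plod3 and chr7:99353240-99353489 (- strand) for Serpinh1.
P4ha2: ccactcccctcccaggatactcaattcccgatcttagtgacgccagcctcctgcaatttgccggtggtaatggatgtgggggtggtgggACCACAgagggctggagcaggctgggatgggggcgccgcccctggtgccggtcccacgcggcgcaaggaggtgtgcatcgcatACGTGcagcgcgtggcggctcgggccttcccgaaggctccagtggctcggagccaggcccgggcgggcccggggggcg
P4ha1: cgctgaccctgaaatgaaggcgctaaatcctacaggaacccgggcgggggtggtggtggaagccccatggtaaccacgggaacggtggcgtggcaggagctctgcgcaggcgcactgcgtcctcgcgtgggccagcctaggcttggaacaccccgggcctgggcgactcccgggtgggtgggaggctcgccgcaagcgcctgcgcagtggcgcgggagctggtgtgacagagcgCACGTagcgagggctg
Plod3: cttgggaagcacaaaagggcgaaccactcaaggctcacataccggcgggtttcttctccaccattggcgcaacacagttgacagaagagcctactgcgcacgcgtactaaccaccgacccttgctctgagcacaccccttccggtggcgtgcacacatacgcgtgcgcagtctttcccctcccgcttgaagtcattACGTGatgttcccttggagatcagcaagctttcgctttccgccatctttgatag
Serpinh1: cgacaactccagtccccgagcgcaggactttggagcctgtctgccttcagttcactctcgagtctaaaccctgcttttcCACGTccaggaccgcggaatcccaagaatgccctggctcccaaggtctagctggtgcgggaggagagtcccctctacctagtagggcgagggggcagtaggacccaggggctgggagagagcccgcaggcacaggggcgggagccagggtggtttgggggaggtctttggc

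The RUNX core was found in the P4ha2 window, 161 bases before the start, and not in the windows of Plod1, Plod3, P4ha1 or Serpinh1. Of 32851 RefSeq promoter windows of the same length, 14% held it. The hypoxia core, read only as ACGTG, was found once each in Plod3, P4ha1, P4ha2 and Serpinh1 and not in Plod1, against 16.6% of all windows. Other spellings of this core, such as GCGTG, were not searched for, so Plod1 is not shown to lack one. The oestrogen receptor motif AGGTCA was in 0 of the 5 windows, against 14% of all windows. A match is a run of letters and not a measured binding site.

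None of the 9 measured enzymes and chaperones changed past the threshold with dox, with or without E2. On a log2 scale the dox effect of each lay between -0.24 and 0.17 without E2 and between -0.17 and 0.10 with E2. Dox against vehicle called 0 of 9 members at an adjusted p under 0.05, where 0.0232% of the 12912 tested probes were called. Dox plus E2 against E2 also called 0 of 9, with 0.0542% of probes called. Over all arrays, with the slide as a block, the 4 dox arrays against the 5 others called 0 of 9, with 0.0697% of probes called. At an unadjusted p under 0.05 these comparisons held 2, 0 and 2 members, against 6.31%, 5.51% and 5.34% of all probes. Each p here is from limma's two-sided moderated test, adjusted by Benjamini-Hochberg across the 12912 probes, and changes are log2 differences ± standard error (SE). In the same comparison of 4 with 5 arrays, 3 of 7 osteoblast markers passed. Sp7, the osteoblast transcription factor osterix, rose by 0.68 ± 0.08 (limma adjusted p = 6.34e-05), and it passed under all 18 alternative settings run for it. Bglap2, which encodes osteocalcin, rose by 1.39 ± 0.18 (limma adjusted p = 7.88e-05) and passed under all 17 of its settings. The size of that rise ran from 0.55 to 1.47 over these settings, and the Bglap2 probe was not detected on every array. Alpl rose by 0.85 ± 0.13 (adjusted p = 0.00175). Its call held under 16 of 18 settings, and was lost without the intensity trend and without dox plus E2 replicate 3. Phex (-0.33 ± 0.20), Col1a1 (-0.13 ± 0.04), Spp1 (0.01 ± 0.06) and Sparc (0.00 ± 0.04) did not pass. For dox against vehicle 0 of 7 osteoblast markers passed, with Sp7 at 0.64 ± 0.12 (adjusted p = 0.114), Alpl at 0.68 ± 0.19 (0.659) and Bglap2 at 1.27 ± 0.26 (0.201). That Bglap2 change was 0.80 with offset 50 and 0.50 on the authors' normalized intensities. In dox plus E2 against E2, Phex (-0.49 ± 0.27), Col1a1 (-0.11 ± 0.06), Spp1 (-0.09 ± 0.08) and Sparc (0.01 ± 0.06) did not pass. The other 3 of 7 osteoblast markers rose (Sp7, Alpl and Bglap2), where 0.0542% of probes were higher and passed. Those calls rested on both dox plus E2 arrays: without replicate 2 the adjusted p was 0.237 for Sp7, 0.48 for Alpl and 0.577 for Bglap2, and without replicate 3 it was 0.289, 0.587 and 0.195. Without E2 replicate 2 the calls of Sp7 (0.0761) and Alpl (0.179) were lost, as was that of Alpl without E2 replicate 1 (0.0511). Under the replicate block all 3 were lost (0.0758 for Sp7, 0.132 for Alpl and 0.0758 for Bglap2), without the intensity trend Sp7 (0.32) and Alpl (0.419) were lost, and with no detection filter Alpl (0.0604) was lost.

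**Figure D1:**
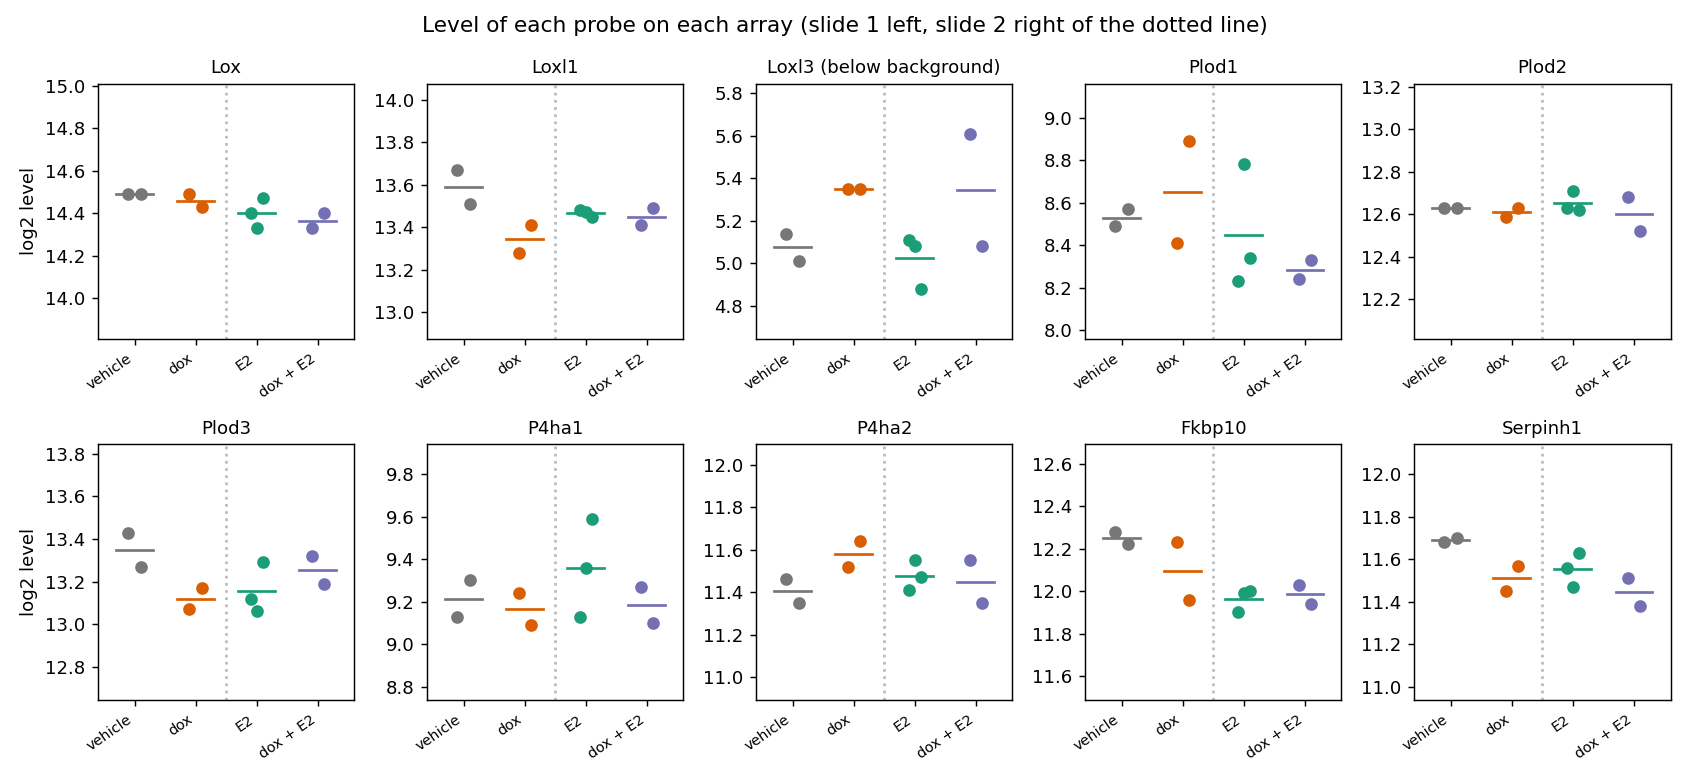
Log2 level of each of the 10 probes (vertical axis, each panel spanning the same log2 range) on each of the 9 arrays by treatment group; points are arrays, lines are group means, and the dotted line parts slide 1 from slide 2. Loxl1, Plod3 and Serpinh1 have both dox arrays below both vehicle arrays and P4ha2 has both above, where 37.1% of all probes do not overlap, and all 4 overlap between E2 and dox plus E2; Loxl3 was below background on all 9 arrays.

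Lox (ILMN_2997494, chromosome 18), the founding lysyl oxidase, did not pass the test in any comparison. Its log2 level was 14.49 and 14.49 with vehicle, 14.49 and 14.43 with dox, 14.40, 14.33 and 14.47 with E2, and 14.33 and 14.40 with dox plus E2. The 9 arrays spanned 0.16 on the log2 scale. Lox was brighter than 99.6% to 99.7% of probes on every array, and quantile normalization gives a shared rank a shared value. Its span and spread after that step are therefore partly set by it. Dox and vehicle overlapped, as did E2 and dox plus E2, while the slide 2 group lay below its slide 1 counterpart without overlap (-0.09 for E2 against vehicle and for dox plus E2 against dox), and with median scaling these signs turned (0.08 and 0.10). The dox effect without E2 was -0.03 ± 0.07 (limma adjusted p = 0.954), and that beside E2 was -0.03 ± 0.06 (adjusted p = 0.978). Over all arrays the 95% interval of the dox effect ran from -8.39% to 4.2%. The deposited signals of this probe, before scaling, ran from 18040 to 24820.

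Loxl1 (ILMN_1255871, chromosome 9), a lysyl oxidase best known for elastic fibre assembly, had the smallest unadjusted p of any member for dox against vehicle. It read 13.67 and 13.51 with vehicle and 13.28 and 13.41 with dox. Both dox arrays lay below both vehicle arrays, with a change of -0.24 ± 0.07 (unadjusted p = 0.00317, limma adjusted p = 0.659). This change was -0.16 without vehicle replicate 1 and -0.33 without vehicle replicate 2. Without the intensity trend it was -0.24 ± 0.10 (limma unadjusted p = 0.0419). With E2, Loxl1 read 13.48, 13.47 and 13.45, and with dox plus E2 13.41 and 13.49. There the groups overlapped and the change was -0.02 ± 0.07 (adjusted p = 0.989). Between slides, the dox effects of Loxl1 differed by 0.22 ± 0.10 (95% interval 0.02 to 0.43, adjusted p = 0.786). Loxl3 (ILMN_2665272), a lysyl oxidase needed for palate and spine development in mice, had detection p-values from 0.0727 to 0.426 and was not tested; no direction is drawn from its levels.

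Among the lysyl hydroxylases, Plod2 (ILMN_2819929, chromosome 9), which hydroxylates the telopeptides that carry bone-type crosslinks, varied least. It read 12.63 and 12.63 with vehicle, 12.59 and 12.63 with dox, 12.63, 12.71 and 12.62 with E2, and 12.68 and 12.52 with dox plus E2. All groups overlapped their neighbours, and the dox effects were -0.02 ± 0.08 and -0.06 ± 0.07 without and with E2 (limma adjusted p = 0.979 and 0.961). Over all arrays its interval ran from -9.57% to 4.77%.

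Plod3 (ILMN_2723058, chromosome 5), which also adds sugars to hydroxylysine, read 13.43 and 13.27 with vehicle and 13.07 and 13.17 with dox. Both dox arrays were below both vehicle arrays, with a change of -0.23 ± 0.08 (unadjusted p = 0.0118, limma adjusted p = 0.74). This change was -0.15 without vehicle replicate 1 and -0.31 without vehicle replicate 2. Without the intensity trend it was -0.23 ± 0.12 (limma unadjusted p = 0.0884). On slide 2 Plod3 read 13.12, 13.06 and 13.29 with E2 and 13.32 and 13.19 with dox plus E2. Those groups overlapped, with a change of 0.10 ± 0.08 (adjusted p = 0.947). Between slides, the dox effects of Plod3 differed by 0.32 ± 0.11 (95% interval 0.09 to 0.56, unadjusted p = 0.00846). This was the smallest unadjusted p of a member for the difference and it did not pass after adjustment (adjusted p = 0.772).

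Plod1 (ILMN_2681289, chromosome 4), which hydroxylates lysines within the triple helix, was the least precise member. It read 8.49 and 8.57 with vehicle and 8.41 and 8.89 with dox, so dox replicate 1 was below and dox replicate 2 above both vehicle arrays. It read 8.23, 8.78 and 8.34 with E2 and 8.24 and 8.33 with dox plus E2. The dox effect without E2 was 0.12 ± 0.17 (limma adjusted p = 0.929), and that beside E2 was -0.16 ± 0.16 (adjusted p = 0.954). Without dox replicate 2 the first of these became -0.12, and without dox replicate 1 it became 0.36.

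The catalytic subunits of prolyl 4-hydroxylase had dox effects of opposite sign on slide 1 in the main fit, and neither passed the test. P4ha1 (ILMN_1234565, chromosome 10) read 9.13 and 9.30 with vehicle, 9.24 and 9.09 with dox, 9.13, 9.36 and 9.59 with E2, and 9.27 and 9.10 with dox plus E2. All neighbouring groups overlapped, and the dox effects were -0.05 ± 0.14 and -0.17 ± 0.12 (limma adjusted p = 0.968 and 0.947). The sign of the first turned with single arrays: it was 0.03 without vehicle replicate 2 and 0.02 without dox replicate 2. P4ha2 (ILMN_2789562, chromosome 11) read 11.46 and 11.35 with vehicle and 11.52 and 11.64 with dox. It was the member with both dox arrays above both vehicle arrays, with a change of 0.17 ± 0.09 (unadjusted p = 0.0636, adjusted p = 0.794). With E2 it read 11.41, 11.55 and 11.47 and with dox plus E2 11.55 and 11.35, which overlapped (-0.03 ± 0.08, adjusted p = 0.988).

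Of the chaperones, Serpinh1 but not Fkbp10 had dox arrays below both vehicle arrays. Serpinh1 (ILMN_2822850, chromosome 7), a collagen-specific chaperone of the endoplasmic reticulum, read 11.68 and 11.70 with vehicle and 11.45 and 11.57 with dox, with no overlap. The change was -0.17 ± 0.09 (unadjusted p = 0.0525, limma adjusted p = 0.794). On slide 2 it read 11.56, 11.47 and 11.63 with E2 and 11.51 and 11.38 with dox plus E2, which overlapped, with a change of -0.11 ± 0.08 (adjusted p = 0.947). Serpinh1 had the smallest unadjusted p of a member over all arrays, at -0.14 ± 0.06 (95% interval -16.3% to -1.17%, unadjusted p = 0.0268, adjusted p = 0.872). Its dox effect was negative under all 18 alternative settings there, from -0.17 to -0.11. The same held for Lox (-0.05 to -0.02), Loxl1 (-0.16 to -0.07) and P4ha1 (-0.17 to -0.06), and the settings reuse the same arrays. Fkbp10 (ILMN_1215085, chromosome 11), a prolyl isomerase that folds procollagen, read 12.28 and 12.22 with vehicle and 12.23 and 11.96 with dox. Its groups overlapped on both slides, with dox effects of -0.15 ± 0.09 and 0.02 ± 0.08 (adjusted p = 0.806 and 0.989). The first of these was -0.29 without dox replicate 1 and -0.02 without dox replicate 2.

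As a group, members had small changes, with negative signs more frequent than positive ones. For dox against vehicle 7 of 9 changes were negative with a median of -0.05, where 50.4% of all probes were negative with a median of -0.00169. Arrays did not overlap for 4 of 9 members (1 higher and 3 lower), where 37.1% of all probes did not overlap (17.6% higher and 19.5% lower). For dox plus E2 against E2, 7 of 9 were again negative, with a median of -0.03, 49.5% of all probes were negative, and 0 of 9 members had arrays that did not overlap against 20% of probes. These medians moved with single arrays and with scaling. For dox against vehicle the median was -0.12 without vehicle replicate 1, -0.03 without vehicle replicate 2, -0.11 without dox replicate 1 and -0.15 with median scaling, where the median of all probes was -0.069. For dox plus E2 against E2 it was -0.12 without dox plus E2 replicate 2 and -0.06 without E2 replicate 1, and 5 of 9 were negative without dox plus E2 replicate 3 or without E2 replicate 2. Over all arrays 8 of 9 were negative with a median of -0.05, against 50.5% of probes, and 0 of 9 had arrays that did not overlap against 1.39% of probes. That median was -0.10 without dox plus E2 replicate 2 and -0.08 without E2 replicate 1 or with median scaling, and 6 of 9 were negative without dox replicate 1. Members negative in both dox comparisons were Lox, Loxl1, Plod2, P4ha1 and Serpinh1. With 7 of 9 negative in each, this is the smallest overlap possible, so it adds nothing to those counts.

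**Figure D2:**
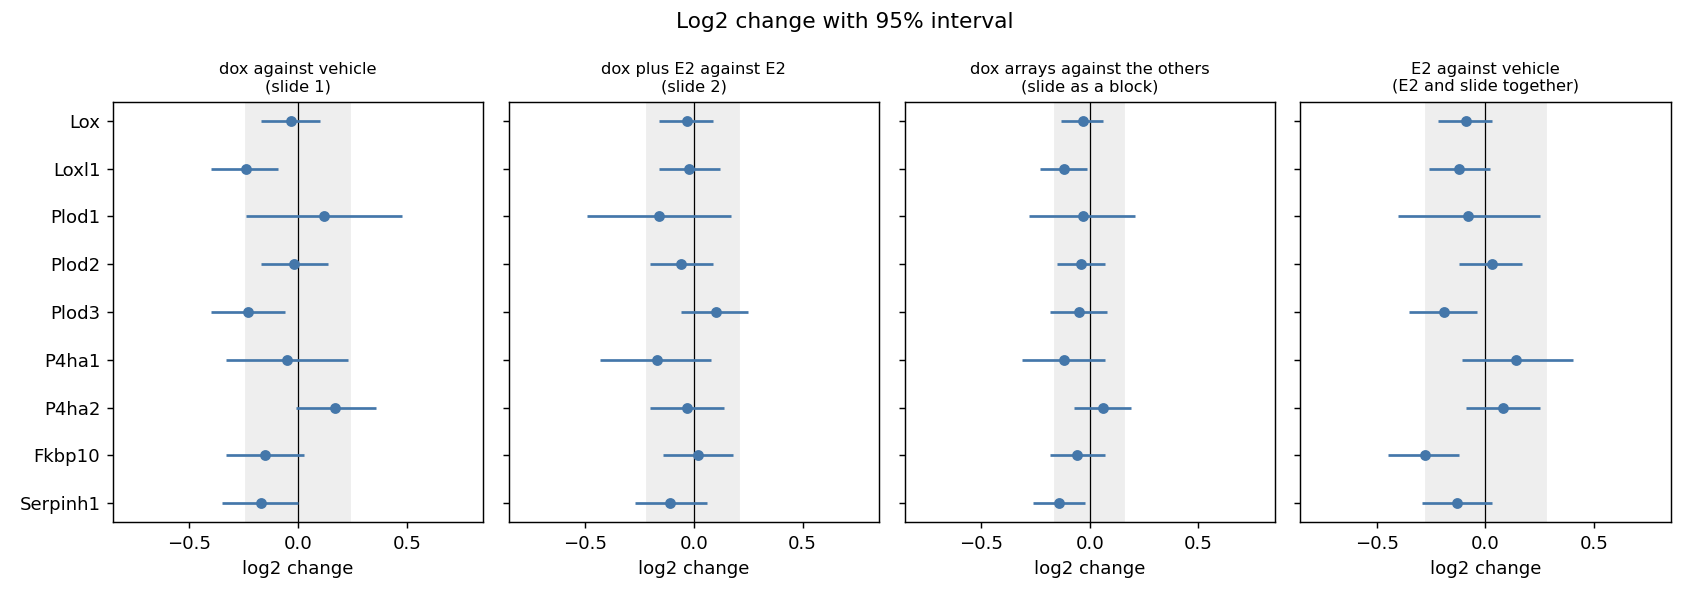
Log2 change of the 9 tested members (horizontal axis) in 4 comparisons; points are limma estimates, bars are 95% intervals, and grey bands span the 10th to 90th percentile of all 12912 probes. For the dox arrays against the others, intervals of Loxl1 and Serpinh1 stay just below 0 before adjustment, and 0 of 9 members passed after it.

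E2 did not alter the dox effect of any member past the threshold. Tested as an interaction (dox effect on slide 2 less that on slide 1), it called 0 of 9 members and 0 of 12912 probes (0% called by limma). At an unadjusted p under 0.05 it held 2 members and 6.13% of probes, 791 in all. Differences ran from -0.28 ± 0.23 for Plod1 (95% interval -0.77 to 0.20) to 0.32 for Plod3, with 5 positive and 4 negative, where 49.1% of all probes were negative. Lox had a difference of 0.00 ± 0.09 (95% interval -0.19 to 0.19). Serpinh1 had 0.07 ± 0.12 (95% interval -0.17 to 0.31), and P4ha2 had -0.20 ± 0.12 (95% interval -0.45 to 0.05).

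E2 against vehicle is a comparison of slides as well as of treatment. It called 0 of 9 members, with 1.02% of probes called. Fkbp10 came nearest: it read 11.90, 11.99 and 12.00 with E2 against 12.28 and 12.22 with vehicle, and all E2 arrays lay below both vehicle arrays. The change was -0.28 ± 0.08 (limma adjusted p = 0.0839), and it passed with only the groups compared in the fit (adjusted p = 0.0494), without dox replicate 1 (0.0389) and without dox replicate 2 (0.0388). Over its 18 alternative settings the adjusted p ran from 0.0388 to 0.479 and the change from -0.31 to -0.21. Plod3 was at -0.19 ± 0.08 (adjusted p = 0.229). The E2 and vehicle arrays did not overlap for Lox, Loxl1, Fkbp10 and Serpinh1, all lower with E2, which makes 4 of 9 against 33.6% of probes (17.3% lower). Dox plus E2 against dox also called 0 of 9 members (0.163% of probes called), with Plod1 at -0.36 ± 0.17 (adjusted p = 0.498) and Fkbp10 at -0.11 ± 0.09 (adjusted p = 0.71). Arrays did not overlap there for 3 of 9 members against 39.2% of probes. At an unadjusted p under 0.05 these comparisons held 2 and 1 members, against 14.9% and 10% of probes. Among members 6 of 9 changes were negative in each, against 49.8% and 48.8% of probes, but with median scaling in place of quantile normalization 4 and 1 of 9 were negative, where the median of all probes itself moved to 0.073 and 0.128.

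Of the heart and slow muscle markers, 3 of the 4 measured were lower on slide 2. Their summed intensity over 4 measured genes of 7 was 1350 to 1580 with vehicle, 1300 to 2040 with dox, 220 to 439 with E2 and 157 to 189 with dox plus E2; Myl2, Myl3 and Actc1 fell in E2 against vehicle (0.511% of probes were lower and passed) and in dox plus E2 against dox (0.147% of probes), while Myh7 and Tnni1 were below the detection filter. Without the intensity trend the E2 against vehicle calls of Myl2, Myl3 and Actc1 were lost (limma adjusted p = 0.168, 0.175 and 0.0909). The fourth, Des, which encodes desmin, was at -0.25 ± 0.25 in E2 against vehicle (adjusted p = 0.672) and -0.14 ± 0.27 in dox plus E2 against dox (adjusted p = 0.901). Lpl, the one adipocyte marker measured of 5, fell by 0.81 ± 0.18 in E2 against vehicle (limma adjusted p = 0.0333, and 0.451 without vehicle replicate 1, 0.0763 without vehicle replicate 2 and 0.0778 without E2 replicate 3). That call was also lost under the replicate block (0.108), with no detection filter (0.0624) and without the intensity trend (0.264). In dox plus E2 against dox Lpl fell by 1.21 ± 0.20 (adjusted p = 0.00375), a call lost without dox replicate 1 (0.167), without dox plus E2 replicate 2 (0.215), under the replicate block (0.205) and without the intensity trend (0.222). Their part in the Fkbp10 value was not tested. In these RNA pools, fewer cells of a type and less RNA per cell cannot be told apart. Of the osteoblast markers, 7 of 12 were measured (Sp7, Alpl, Bglap2, Col1a1, Spp1, Sparc and Phex), while Runx2, Ibsp, Dmp1 and Postn were below the detection filter. Their summed intensity was 93100 to 93600 with vehicle. With vehicle it was 26000 to 26300 for chondrocyte markers (4 of 5 measured) and 3570 to 4100 for macrophage and osteoclast markers (3 of 6). No marker of these last lists passed in any comparison.

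The members differed in how tightly replicates matched. The SD between replicate arrays, pooled within groups, was 0.0525 for Lox, 0.0625 for Plod2, 0.0719 for Loxl1 and 0.0746 for Serpinh1 on the log2 scale. It was 0.104 for Plod3, 0.169 for P4ha1 and 0.243 for Plod1. Probes of low level had the larger spread on these arrays, so each member was set against the 500 probes nearest to it in level. Plod1 then had a larger spread than 94% of them, P4ha1 than 83.8% and Plod3 than 82.4%, while Lox had a larger spread than 23.8% and Plod2 than 29.4%. For Plod1, dox replicate 2 and E2 replicate 2 lay 0.30 and 0.40 above the means of their slides.

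**Figure D3:**
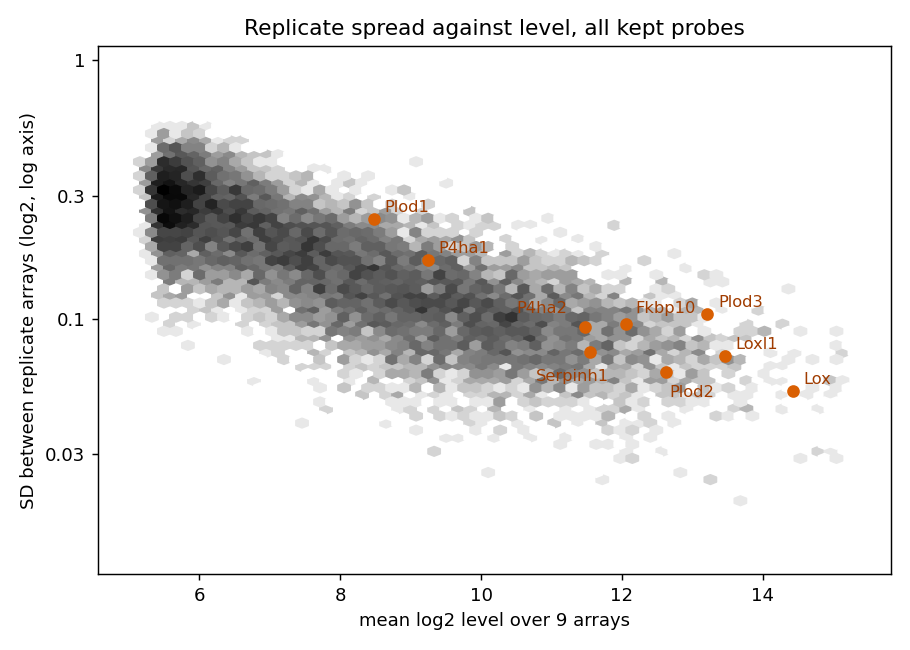
SD between replicate arrays (vertical axis, log scale, log2 units) against mean log2 level over the 9 arrays, for all 12912 tested probes (grey, darker where more probes fall) and for the 9 members (orange). Plod1, P4ha1 and Plod3 lie toward the upper edge of probes of their level, and Lox and Plod2 in the lower part.

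Other genes of collagen modification, folding, secretion and trimming also did not pass the test with dox. Of 35 listed genes 25 were tested, and 0 passed in either direction for dox against vehicle (10 positive, 15 negative, median -0.05) or for dox plus E2 against E2 (13 positive, 12 negative, median 0.00). The smallest unadjusted p-values for dox against vehicle were those of Sec24d, a coat protein for procollagen export (0.47 ± 0.15, unadjusted p = 0.00377, limma adjusted p = 0.659), and Pcolce, an enhancer of procollagen C-terminal trimming (-0.24 ± 0.07, adjusted p = 0.659). With E2 they were those of Lum, the fibril-binding proteoglycan lumican (-0.45 ± 0.17, adjusted p = 0.821), and Creb3l1, a transcription factor of collagen secretion (-0.36 ± 0.14, adjusted p = 0.832).

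The collagen chains, on which these enzymes act, did not pass the test with dox either. Of 23 listed genes 16 were tested and 0 passed in either dox comparison, with 12 of 16 negative without E2 (median -0.09) and 10 of 16 with E2 (median -0.02). Col1a1, the main chain of bone collagen, was at -0.15 ± 0.07 without E2 (limma adjusted p = 0.762) and, beside E2, at -0.11 ± 0.06 (adjusted p = 0.943). Col18a1 was at -0.30 ± 0.13 without E2 (adjusted p = 0.759). Col11a2, a minor fibrillar chain, was at 0.81 ± 0.27 with E2 (adjusted p = 0.741). In E2 against vehicle, on different slides, 1 of 16 passed: the basement membrane chain Col4a2 fell by 0.39 ± 0.07 (adjusted p = 0.0116), where 0.511% of all probes passed in that direction. That call was lost without either vehicle array and without E2 replicate 2 (0.0525). It was also lost with median scaling (0.0708) and without the intensity trend (0.244).

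Hypoxia response genes, listed because several members are known to follow them, gave 0 of 20 tested (of 27 listed) past the threshold in either dox comparison. Without E2, 15 were negative with a median of -0.06, and with E2 14 were negative with a median of -0.02. Gapdh and Ldha, both of glycolysis, were at -0.17 ± 0.07 (limma adjusted p = 0.757) and -0.15 ± 0.07 (adjusted p = 0.787) without E2. Pdk1, which limits the use of pyruvate in mitochondria, was at -0.33 ± 0.16 (limma adjusted p = 0.881) with E2, and Tpi1, another glycolytic enzyme, at 0.11 ± 0.07 (adjusted p = 0.943).

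**Figure D4:**
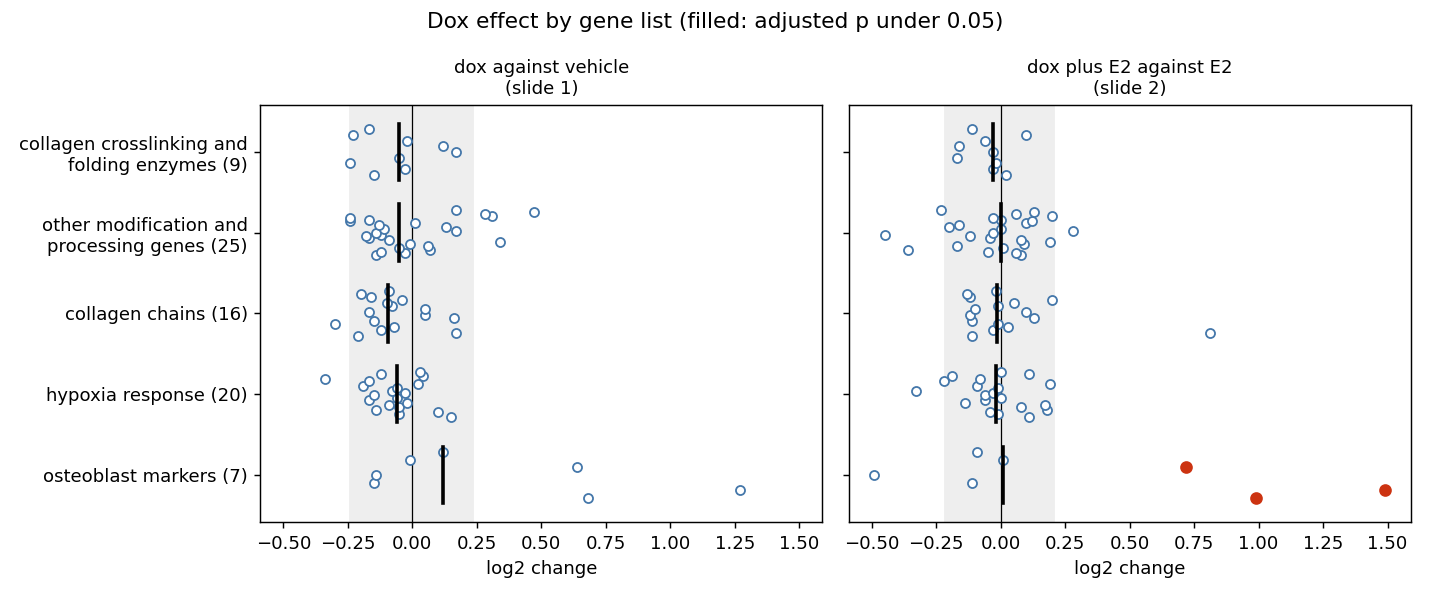
Log2 dox effect (horizontal axis) of single genes in 5 lists, without E2 (left) and with E2 (right); open points did not pass and filled points passed at an adjusted p under 0.05, black bars are list medians, and grey bands span the 10th to 90th percentile of all probes. Members lie in or at the edge of the grey band in both panels, and the filled points, all with E2, are the osteoblast genes Sp7, Alpl and Bglap2.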

How the data were processed

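Total RNA was measured on 9 Illumina bead arrays. The authors' deposited table holds, per the file headers, a linear bead signal (intensity) and a detection p-value per probe, from GenomeStudio 2011.1 per the submitters' processing notes. The values show no background subtraction or scaling. Another deposited table gives the authors' normalized intensity, equal to a quantile normalization of the signals within 0.512%. Further upstream steps and the genome build are not given in the sources used here.

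Signals were corrected and quantile normalized with neqc (limma 3.58.1, R 4.3.3; offset 16) and put on the log2 scale. A common shift of most genes would not be seen. The filter kept 12912 of 25697 probes (detection p under 0.05 on 2 or more arrays), and 11554 to 12206 were detected per array. All arrays were fitted together, with a variance prior that follows intensity, and a probe passed at an adjusted p under 0.05. The fit was tested on simulated data. A list used the brightest kept probe per gene. Members were matched by the table's symbols. For the lists, symbols were updated through RefSeq (3872 probes renamed), and 5 of the 10 members matched a RefSeq promoter used here. All members were named. For other lists, genes past the threshold (up to 4), or the 2 with the smallest p, were named. The genes most like a member were to be named only for members past the threshold, of which there were 0. Members and lists were chosen with earlier results of these data known. Alternatives covered filters, normalization, offset, prior, replicate block and each array left out. Figures used matplotlib 3.10.9.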

Additional observations from a re-analysis of the deposited data

How the results depend on the processing

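The count of members past the threshold stayed at 0 under every alternative for the dox comparisons, for their difference and for dox plus E2 against dox. For E2 against vehicle it became 1 (Fkbp10) with only the groups compared, and ran from 0 to 1 with an array left out. Of 963 member values under alternatives, 918 kept their sign and 45 did not. The changes whose sign turned were at most 0.16 in size in the main fit. Where 1 array stood for a group, it was assumed to vary like the other groups.

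Counts over all probes moved more. Leaving out 1 array gave 1 to 9 probes for dox against vehicle (3 in full), 1 to 8 for dox plus E2 against E2 (7 in full), 0 to 3 for the difference (0 in full), 15 to 236 for E2 against vehicle (132 in full) and 9 to 48 for dox plus E2 against dox (21 in full). Without the intensity trend the counts were 3 for dox plus E2 against E2, 0 for E2 against vehicle and 7 for dox plus E2 against dox. With median scaling they were 234 for E2 against vehicle and 175 for dox plus E2 against dox. With no detection filter 55 probes passed for E2 against vehicle, and with detection on all 9 arrays 7 passed for dox plus E2 against dox. With the replicate number as a replicate block the counts were 2 for dox plus E2 against E2, 58 for E2 against vehicle and 11 for dox plus E2 against dox. Same-numbered arrays did not deviate together (correlations from -0.17 to 0.054), so the numbers were not taken as pairs.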
